A study of Homo sapiens with 10 samples.

Results

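The heat shock proteins and J-domain chaperones were followed through 7 human ovarian cancer cell lines sequenced as long reads on nanopore instruments. The members were all genes whose symbol belongs to the HSPA, HSPB, HSPD1, HSPE1, HSPH1, HSP90, DNAJA, DNAJB or DNAJC series in the deposited transcript annotation, without the HSP90 pseudogenes whose symbols end in P. This gave 72 of 57110 genes, 29 heat shock proteins and 43 J-domain proteins, with 173 of 99493 transcripts. HSPA7 and DNAJB3 carry no pseudogene suffix and were kept, although the annotation types them as pseudogenes. For 4 members the annotation joins the gene with a neighbour or an overlapping gene under 1 identifier. HSPE1's own transcripts held 84.0 to 95.1% of its counts, HSPA14 all of them and DNAJB11 at least 99.1%. The row of DNAJC14 was mostly SARNP, which held 90.3 to 98.1% of its counts, so its values do not describe DNAJC14.

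The lines COV362, COV504, OVKATE, OVMANA, OVTOKO and SK-OV-3 are represented by a single PromethION library apiece, whereas IGROV-1 has 2 PromethION and 2 MinION libraries, the PromethION and the MinION being a larger and a smaller nanopore sequencer. All are total RNA from established lines, with no treatment, genotype change or passage given in the labels, which also do not say whether the IGROV-1 replicates were separate cultures. The series was made for benchmarking long-read transcript quantification, so the lines and the 2 instruments are its contrasts. Libraries held 1729782 to 3666224 assigned counts, and 3 counts, the limit that a count of 0 allows, equal a level of 0.818 to 1.73 CPM. CPM are counts scaled to a library of 1000000, which for reads of whole molecules count molecules and are not divided by length. The 2 mitochondrial ribosomal RNA genes held 9.13 and 10.95% of the counts in the IGROV-1 PromethION libraries against 1.01 to 3.31% in the other 8. Summed epithelial markers ranged from 404.0 to 8791 CPM. In the IGROV-1 libraries EPCAM was at 0 to 1.54 CPM, CDH1 at 0 and KRT8 at 5.15 to 11.43 CPM. KRT18 was at 243.6 to 1079.5 CPM there and KRT19 at 140.1 to 177.0 CPM. CDH1 was also low in OVTOKO (2.31 CPM), SK-OV-3 (5.06) and COV362 (1.57). PAX8, a marker of Müllerian epithelium, was at 84.1 to 339.8 CPM. The related markers WT1, MUC16 and MSLN were at 0 to 2.03 CPM in OVTOKO, SK-OV-3 and IGROV-1. In the other lines MUC16 was at 11.6 to 57.4 CPM and MSLN at 16.9 to 309.6 CPM. WT1 was above 0.39 CPM only in OVKATE (76.2 CPM). Summed leukocyte markers stayed between 0 and 16.3 CPM.

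Chaperones bind unfolded proteins and keep them from aggregating. HSP70 proteins do so in cycles of ATP hydrolysis. J-domain proteins bring the client and start hydrolysis, nucleotide exchange factors of the HSP110 type reset the cycle, and HSP90 takes over late folding steps. Each compartment has its own set: HSPA5 (BiP) and HSP90B1 (GRP94) in the endoplasmic reticulum (ER), HSPA9 with the HSPD1 and HSPE1 chaperonin in mitochondria. Heat shock factor 1 (HSF1) induces the cytosolic set through heat shock elements, and the unfolded protein response induces the ER set through ER stress response elements. Cancer cells often keep both sets high without heat.

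The promoter stretches below are shown because the best studied regulation of these genes acts through such elements. The 250 bases before the start site were taken from RefSeq (GRCh38.p14) and could be matched for 63 of the 72 members. An element of the form GAANNTTCNNGAA on either strand was in 120 of 27305 promoters (0.439%), among them those of HSPA6, DNAJB6 and HSPA8. An element of the form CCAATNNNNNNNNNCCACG on either strand, which contains the CCAAT box found in 33.0% of all promoters, was in 22 (0.081%), among them HSPA5 and HSP90B1. Matches are in capitals and each line reads 5′ to 3′ on the gene's strand.
HSPA5, chr9:125241386-125241414, minus strand, match at -66 to -48: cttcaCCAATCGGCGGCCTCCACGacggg
HSP90B1, chr12:103930211-103930239, plus strand, match at -194 to -176: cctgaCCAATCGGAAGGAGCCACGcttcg
HSP90B1, chr12:103930316-103930344, plus strand, match at -89 to -71 on the opposite strand: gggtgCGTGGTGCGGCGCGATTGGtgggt
HSPA8, chr11:123062346-123062374, minus strand, match at -230 to -218: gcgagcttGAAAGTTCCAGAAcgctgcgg
HSPA8, chr11:123062171-123062199, minus strand, match at -55 to -43 on the opposite strand: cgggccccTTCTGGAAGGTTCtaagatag
DNAJB6, chr7:157336865-157336893, plus strand, match at -131 to -119: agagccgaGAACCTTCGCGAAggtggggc
HSPA6, chr1:161524458-161524486, plus strand, match at -74 to -62 on the opposite strand: cggaaaggTTCGCGAAAGTTCgcggcggc
Positions count from the RefSeq start site. The GENCODE spans of HSP90B1, HSPA8 and DNAJB6 begin further upstream, so the stretches of these genes lie inside their spans. A match describes these letters only. The remaining members of the inducible set hold no such uninterrupted element of 3 units in this window, which says nothing of other forms of the element.

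The members together made up a similar part of every library. Their summed level was lowest in OVMANA at 11444 CPM and highest in OVKATE at 15942 CPM, and the 4 IGROV-1 libraries held 12709 and 12860 CPM on the PromethION and 13471 and 13726 CPM on the MinION. In bulk RNA, a larger share of cells with a transcript and more of it per cell cannot be told apart. The 7 most abundant members held 67.2 to 78.4% of the sum. HSP90AA1 was the first member in 8 of the 10 libraries, HSPA8 in OVMANA and HSPD1 in COV362. Of the 72 members, 52 had counts in all 10 libraries and 51 had a mean of at least 10 CPM. DNAJA4 had counts in 3 libraries, HSPB2 in 2 and HSPB6 and HSPA12B in 1, and DNAJB3, DNAJB8, HSPA7, HSPB7 and HSPB9 had no count in any library.

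**Figure D1:**
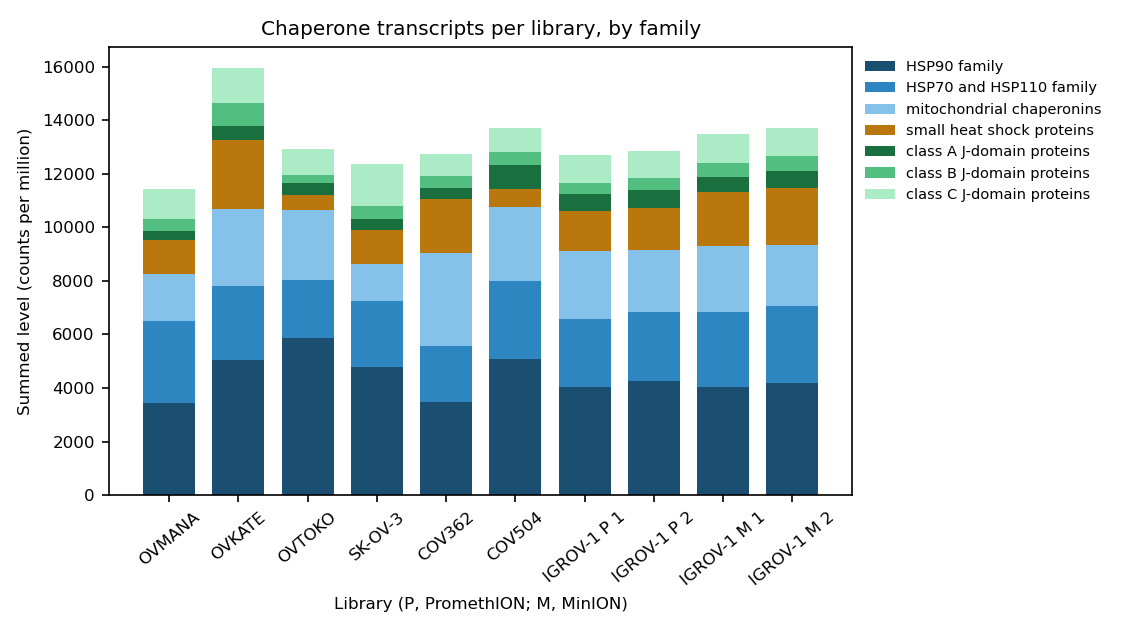
Summed level of each family in each library, in CPM, as stacked bars. The HSP90 family took 3453 CPM in OVMANA and 5876 CPM in OVTOKO. The small heat shock proteins among the members took 557.9 CPM in OVTOKO and 2575 CPM in OVKATE.

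The makeup of that sum differed between lines more than the sum did. The HSP90 family was at 3453 CPM in OVMANA, 3461 CPM in COV362 and 5876 CPM in OVTOKO. The small heat shock proteins among the members, which do not include CRYAB, were at 557.9 CPM in OVTOKO and 659.8 CPM in COV504. These were below every other library, and OVKATE was at 2575 CPM. The mitochondrial chaperonins were at 1379 CPM in SK-OV-3 and 3472 CPM in COV362. Over the 7 lines, with IGROV-1 taken as the mean of its PromethION libraries, the median ratio of the highest to the lowest line was 3.08 for the 51 members with a mean of at least 10 CPM, and 3.72 for all 8717 genes at that level. A ratio over 10 was found for 8 of the 51 members (15.7%) and for 19.7% of all these genes. OVKATE held the highest level of 18 of the 51 members and SK-OV-3 that of 11, while OVTOKO held the lowest of 14 and COV362 of 10. The same tally was not made over all 8717 genes, so it cannot be read as particular to the members. In the comparison with IGROV-1 below, OVKATE had the largest shares of all genes called (26.8% higher and 22.4% lower).

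**Figure D2:**
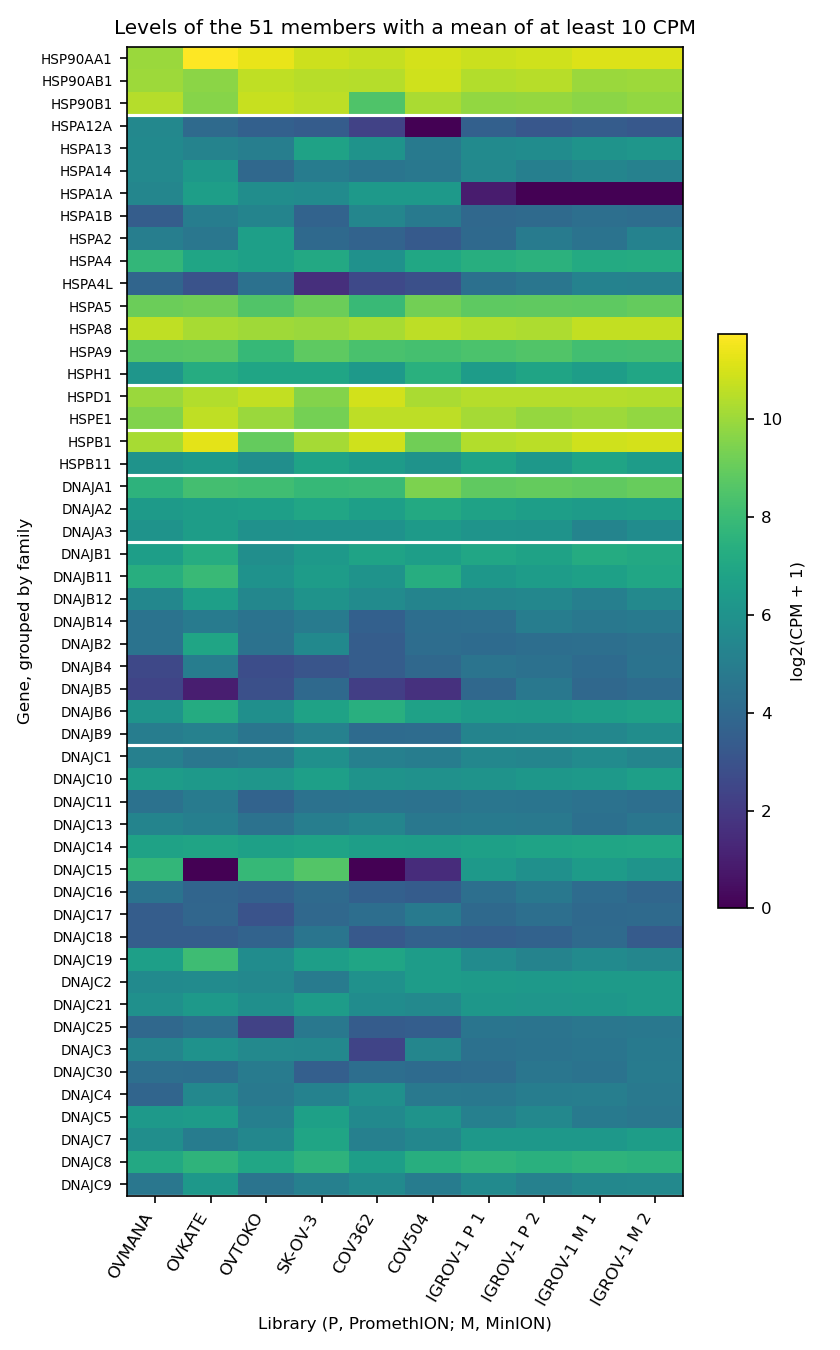
Level of the 51 members with a mean of at least 10 CPM in each library, as log2(CPM + 1), in rows grouped by family (HSP90, HSP70 with HSP110, mitochondrial chaperonins, small heat shock proteins, then J-domain classes A, B and C). DNAJC15 is dark in OVKATE, COV362 and COV504, and HSPA1A is dark in the 4 IGROV-1 libraries.

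Each line was then compared with the 2 IGROV-1 PromethION libraries in 1 edgeR quasi-likelihood fit over all 10 libraries and 13030 genes, with Benjamini-Hochberg adjustment, a call being an adjusted p under 0.05. Each line has 1 library and is assumed to vary like the IGROV-1 replicates, so the p-values measure only the spread between those, and all 6 comparisons share the same IGROV-1 libraries. Of the 72 members, 59 passed the filter on low counts. In OVMANA 9 members were higher (all genes, 18.9%) and 7 lower (all genes, 16.5%). In OVKATE 16 were higher (all genes, 26.8%) and 13 lower (22.4%). In OVTOKO 8 were higher (18.2%) and 12 lower (15.9%), in SK-OV-3 11 (22.0%) and 12 (19.8%). In COV362 12 were higher (23.7%) and 14 lower (18.8%), and in COV504 10 (24.0%) and 13 (19.6%). As shares of the 59 these are 13.6 to 27.1% higher and 11.9 to 23.7% lower, near the shares of all genes. The median log2 change of the members lay between -0.19 and -0.03 and that of all genes between -0.01 and 0.04. With DESeq2 the members called were 6 in OVMANA, 13 in OVKATE, 6 in OVTOKO, 8 in SK-OV-3, 9 in COV362 and 5 in COV504. Over all 13030 genes DESeq2 called 1442, 2116, 1314, 1672, 1587 and 1771 in the same order. The edgeR fit called 4613, 6405, 4443, 5446, 5544 and 5672 of all genes. Leaving out IGROV-1 MinION replicate 1 lowered the numbers called in every line, among the members as among all genes. Of the 137 calls, 46 held under all of the 8 to 10 alternative fits that could test them, and none changed sign in any. A minimum change of 2-fold is not among these fits, and 40 of the 46 pass it. Unless a sentence below says otherwise, a named member's call is one of these 46.

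Among the HSP90 proteins, HSP90AA1 (HSP90 alpha, the stress-inducible cytosolic form, chr14:102080738-102139699) was at 1014 CPM in OVMANA, 3428 in OVKATE, 2593 in OVTOKO, 1848 in SK-OV-3, 1700 in COV362 and 1997 in COV504, with 1767 and 1900 CPM in the IGROV-1 PromethION and 2215 and 2231 CPM in the MinION libraries. OVMANA stood below and OVKATE and OVTOKO above all IGROV-1 libraries. The log2 change was -0.79 ± 0.16 (SE, edgeR adjusted p = 0.0061) in OVMANA. It was 0.60 ± 0.15 in OVKATE (edgeR adjusted p = 0.012, 0.11 without IGROV-1 PromethION replicate 1) and 0.58 ± 0.15 in OVTOKO (edgeR adjusted p = 0.02, 0.16 without the same library). The constitutive form HSP90AB1 (HSP90 beta, chr6:44246166-44253888) was lower in OVKATE alone of the 6 lines by the test, at 825.5 CPM against 1361 and 1416 CPM, a log2 change of -1.05 ± 0.16 (edgeR adjusted p = 0.00086). OVKATE thus held 4.15 counts of HSP90AA1 per count of HSP90AB1, against 0.98 to 1.65 in the other PromethION libraries. The ratio differed by instrument within IGROV-1, at 1.30 and 1.34 on the PromethION and 2.23 and 2.15 on the MinION.

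HSP90B1 (GRP94, the HSP90 of the ER, chr12:103930107-103953645) had another order. It was at 1402 CPM in OVMANA, 777.5 in OVKATE, 1712 in OVTOKO, 1501 in SK-OV-3, 368.7 in COV362 and 1214 in COV504, with 916.7 and 942.0 CPM in the IGROV-1 PromethION and 838.2 and 903.7 CPM in the MinION libraries. COV362 was the lowest library by far and OVTOKO the highest. The log2 change was -1.29 ± 0.16 in COV362 (edgeR adjusted p = 0.00043) and 0.96 ± 0.14 in OVTOKO (edgeR adjusted p = 0.0014). Calls in OVMANA (log2 change 0.65), SK-OV-3 (0.46) and OVKATE (-0.56) had edgeR adjusted p-values of 0.0088, 0.033 and 0.015, and were lost without IGROV-1 PromethION replicate 1 (0.058, 0.2 and 0.067). The OVKATE and SK-OV-3 calls were also lost without PromethION replicate 2 (0.097 and 0.15).

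Of the 13 ER members, 6 were lower and none higher in COV362 (all genes, 18.8% lower and 23.7% higher), where the median log2 change was -0.86 against 0.04 for all genes tested. Besides HSP90B1 these were HSPA5, the ER HSP70, and the J-domain proteins DNAJC3, DNAJB9, DNAJB14 and DNAJC25. HSPA5 (chr9:125234853-125241330) was at 244.5 CPM in COV362 against 448.5 and 463.9 CPM in IGROV-1 PromethION, and between 375.2 and 612.6 CPM in every other library. Its log2 change was -0.86 ± 0.15 in COV362 (edgeR adjusted p = 0.0028), the only line in which HSPA5 passed the test. DNAJC3 (P58IPK, an ER co-chaperone that also inhibits the stress kinases PERK and PKR, chr13:95677139-95794989) was at 4.3 CPM in COV362 and at 20.1 to 61.8 CPM elsewhere. It was lower in COV362 by 2.21 on the log2 scale (a change of -2.21 ± 0.34, edgeR adjusted p = 0.0012). In the other 5 lines it was higher, by log2 changes of 0.84 to 1.27 (edgeR adjusted p = 0.0014 to 0.016), with DESeq2 adjusted p-values of 0.19 to 0.51 there. The COV362 changes of DNAJB9, a BiP co-chaperone (-1.25, edgeR adjusted p = 0.004), DNAJC25 (-1.14, 0.013) and DNAJB14 (-1.12, 0.034) were not called with DESeq2 (adjusted p = 0.31, 0.57 and 0.52).

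**Figure D3:**
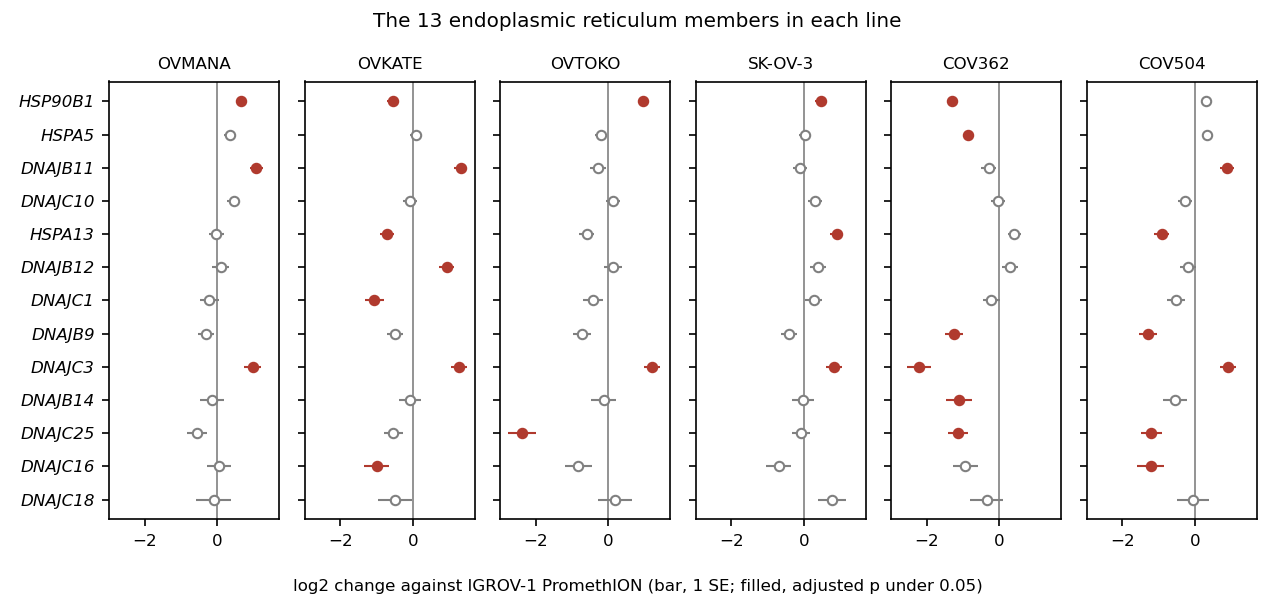
Log2 change of the 13 ER members in each line against IGROV-1 PromethION, with bars of 1 SE and filled points for an adjusted p under 0.05. In COV362 6 of 13 points are filled and all of these lie left of 0.

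Among the other lines, the called ER members were all higher in OVMANA and SK-OV-3 and went both ways in OVTOKO, OVKATE and COV504. OVMANA had 3 higher and none lower (all genes, 18.9% and 16.5%), SK-OV-3 3 and none (22.0% and 19.8%), OVTOKO 2 and 1 (18.2% and 15.9%), OVKATE 3 and 4 (26.8% and 22.4%), and COV504 2 and 4 (24.0% and 19.6%). DNAJB11 (ERdj3, a soluble BiP co-chaperone) was higher in OVMANA by 1.07 ± 0.19 and in OVKATE by 1.32 ± 0.18 on the log2 scale (edgeR adjusted p = 0.0026 and 0.00054), at 163.5 and 248.8 CPM against 72.2 and 89.8 CPM. DNAJC25 was at 4.0 CPM in OVTOKO against 22.6 and 21.9 CPM, a log2 change of -2.37 ± 0.39 (edgeR adjusted p = 0.0022, DESeq2 adjusted p = 0.14). Of the 16 unfolded protein response genes outside the members, 9 were lower and 3 higher in COV362, against 18.8% and 23.7% of all genes, and 8 lower and 1 higher in OVKATE, against 22.4% and 26.8%. In OVTOKO none were lower and 4 higher, in OVMANA 1 and 5, in SK-OV-3 4 and 3, and in COV504 4 and 2, where 15.9 to 19.8% of all genes were lower and 18.2 to 24.0% higher. Their median log2 change was -0.89 in COV362, -0.58 in OVKATE and 0.08 to 0.33 in the other 4 lines. Among those lower in COV362 were SDF2L1 (-2.29), CRELD2 (-2.09), HERPUD1 (-1.81), PDIA3 (-1.45), PDIA4 (-1.04) and MANF (-1.01), which act in ER folding or degradation. CANX (0.55), ATF6 (0.97) and DDIT3 (1.02) were higher there. XBP1, a transcription factor of this response, had 0 counts in COV504 and 69.2 to 188.4 CPM in every other library, while HSP90B1 (log2 change 0.31, edgeR adjusted p = 0.12) and HSPA5 (0.35, edgeR adjusted p = 0.084) did not pass the test in COV504.

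The 22 promoters with the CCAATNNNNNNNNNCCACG element belong to 19 genes of the files, 15 of them tested, a set looked at after the values of HSPA5 and HSP90B1 were known. The 15 include HSPA5 and HSP90B1 themselves, so the set is not a separate one. Both are among those lower in COV362. HSP90B1 is also among those lower in OVKATE and those higher in OVTOKO, OVMANA and SK-OV-3. CALR, CANX, CRELD2 and XBP1 were already counted among the unfolded protein response genes above. In COV362 7 of the 15 were lower and 3 higher, in OVKATE 4 lower and none higher, in OVTOKO none lower and 6 higher, in OVMANA 1 lower and 9 higher, in SK-OV-3 2 lower and 2 higher, and in COV504 3 lower and 4 higher. Of all genes, 15.9 to 22.4% were lower and 18.2 to 26.8% higher in a line. The median log2 change of the 15 was -0.45 in COV362, -0.56 in OVKATE, 0.57 in OVTOKO, 0.66 in OVMANA, 0.03 in SK-OV-3 and 0.31 in COV504. CALR, the ER lectin calreticulin, was at 444.7 CPM in COV362 and at 764.6 to 1267 CPM elsewhere, and CRELD2 was at 9.01 CPM in COV362 and 111.6 CPM in OVTOKO. CANX and SERP1 hold the element too and were higher in COV362, at 530.5 and 260.9 CPM.

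Cytosolic HSP70 was dominated by the constitutive HSPA8 (HSC70), at 1012 CPM in SK-OV-3 to 1634 CPM in IGROV-1 MinION replicate 1. It varied little, with a highest line 1.55 times the lowest. The stress-inducible pair HSPA1A (chr6:31815464-31817946) and HSPA1B (chr6:31827735-31830255) was far less abundant. HSPA1A was at 40.6 CPM in OVMANA, 95.0 in OVKATE, 53.2 in OVTOKO, 49.6 in SK-OV-3, 78.0 in COV362 and 78.7 in COV504, but at 0.9 CPM, 2 counts, in IGROV-1 PromethION replicate 1 and at 0 counts in the other 3 IGROV-1 libraries. Every other line lay above every IGROV-1 library. The ratio to the 2 PromethION libraries ran from 94.8 in OVMANA (95% exact counting interval 25.4 to 797) to 222 in OVKATE (60.5 to 1840), and the edgeR adjusted p from 2.5e-05 to 0.00012. The IGROV-1 side of these ratios is the 2 counts of PromethION replicate 1, under the floor of 3 counts. Without that library the fitted log2 change in OVMANA went from 6.47 to 9.73, and without PromethION replicate 2 to 5.55, with the call kept in both fits. HSPA1B was present in IGROV-1, at 14.5 and 15.5 CPM on the PromethION and 18.3 and 17.6 CPM on the MinION, inside the range of 10.2 CPM in OVMANA to 41.1 CPM in COV362. The coding sequences of both genes have 1923 bases and differ by 4 edits (99.79% identical), while the parts after the coding sequence, of 267 and 382 bases, are 53.93% identical in the GENCODE transcripts. Reads could therefore be split unevenly between the pair, and HSPA1A's share of their sum was 57.9 to 80.3% in the 6 lines and 0 to 5.6% in IGROV-1. The sum of both was 15.4 to 18.3 CPM in IGROV-1 and 50.8 to 125.1 CPM in the other lines. Fitted as 1 gene, a choice made after seeing the data, the pair was higher in all 6 lines, with log2 changes from 1.77 in SK-OV-3 (edgeR adjusted p = 0.00031) to 2.99 in COV362 (edgeR adjusted p = 1.5e-05).

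**Figure D4:**
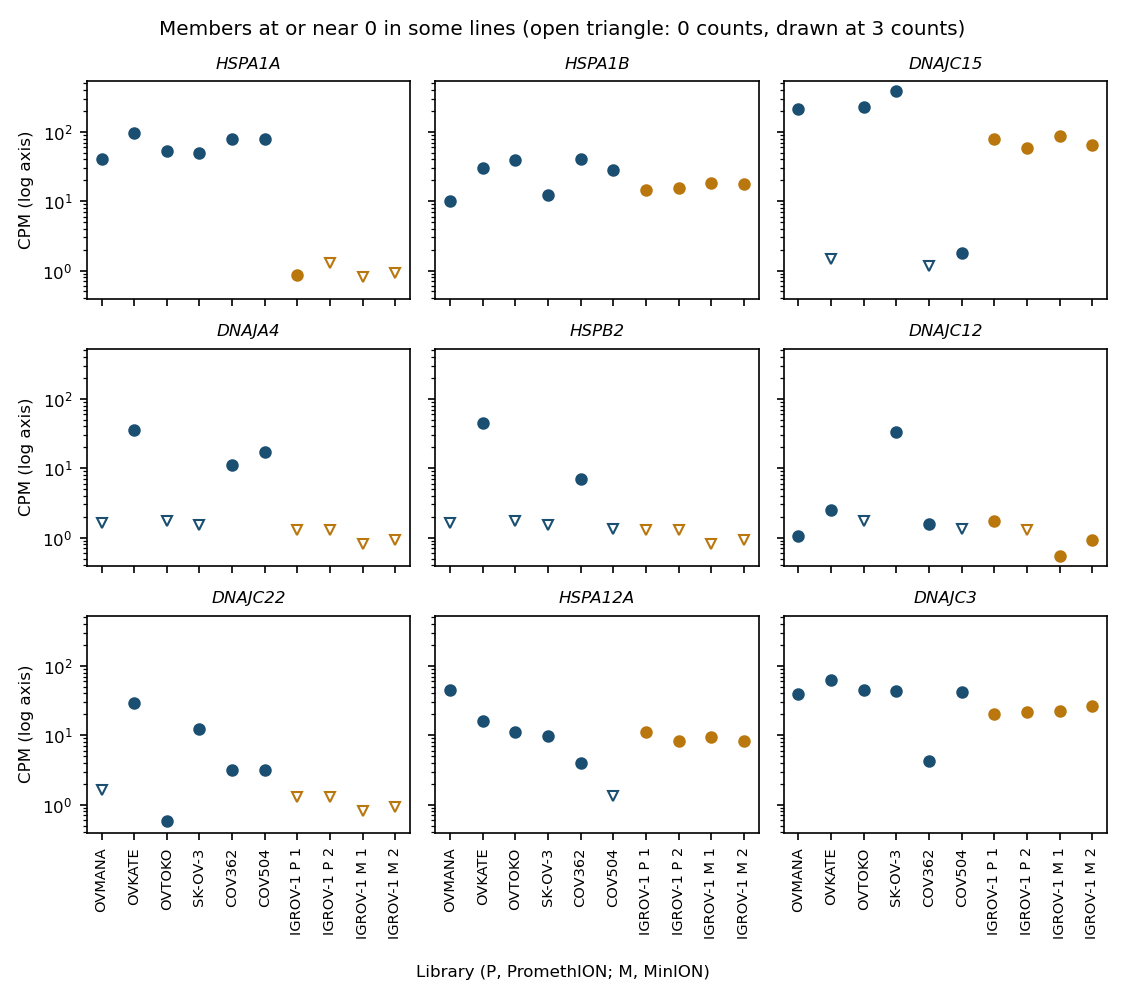
Level of 9 members in each library on a log axis of CPM, with IGROV-1 in orange. Open triangles mark 0 counts and are drawn at the level of 3 counts, as for DNAJC15 in OVKATE and COV362 and for HSPA1A in 3 of the 4 IGROV-1 libraries.

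The HSP110 proteins HSPA4, HSPA4L and HSPH1 are nucleotide exchange factors of HSP70. HSPA4 was lower in 5 lines, most in COV362, at 60.3 CPM against 165.7 and 187.7 CPM, a log2 change of -1.51 ± 0.18 (edgeR adjusted p = 0.00037). In the other 4 the changes were -0.88 to -0.55 and were not called with DESeq2 (adjusted p = 0.13 to 0.52). HSPA4L was at 2.0 CPM in SK-OV-3 against 19.2 and 23.6 CPM, a log2 change of -3.59 ± 0.46 (edgeR adjusted p = 0.00049), and was lower in OVKATE, COV362 and COV504 by edgeR but not by DESeq2. HSPH1 was higher in COV504 only, at 172.6 CPM (log2 change 0.70, edgeR adjusted p = 0.028, 0.26 with DESeq2). HSPA2, an HSP70 best known from the testis, was at 97.1 CPM in OVTOKO against 15.4 and 28.8 CPM, a log2 change of 2.21 ± 0.36 (edgeR adjusted p = 0.002). HSPA12A, a distant HSP70 relative (chr10:116671192-116850236), had 44.4 CPM in OVMANA, 11.1 and 8.2 CPM in the IGROV-1 PromethION libraries and 0 counts in COV504, at least 7.22-fold lower there (floor of 3 counts in the COV504 library, edgeR adjusted p = 0.0013). The OVMANA change of 2.26 ± 0.29 (edgeR adjusted p = 0.00059) was not called with DESeq2 (adjusted p = 0.16).

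In mitochondria, the chaperonin HSPD1 (HSP60, chr2:197486581-197516737) was at 752.1 CPM in SK-OV-3 and 1939 CPM in COV362, with 1405 and 1381 CPM in IGROV-1 PromethION. It was lower in SK-OV-3 by 1.12 on the log2 scale (a change of -1.12 ± 0.16, edgeR adjusted p = 0.001), and its partner HSPE1 (HSP10) had a change of -0.97 ± 0.19 there (edgeR adjusted p = 0.0046). In COV362 both were higher, by 0.52 and 0.59 (edgeR adjusted p = 0.025 and 0.028), calls that were lost without IGROV-1 PromethION replicate 2 (0.14 and 0.16). HSPD1 and HSPE1 stayed within a ratio of 0.80 to 1.58 to each other in all 10 libraries, although HSPE1's row includes MOB4. HSPA9 (mortalin), the HSP70 of the import motor, ranged from 228.9 CPM in OVTOKO to 454.8 CPM in SK-OV-3.

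DNAJC15, a J-domain protein of the inner mitochondrial membrane also named methylation-controlled J protein (chr13:43023203-43114224), had the widest range of all abundant members. It was at 215.3 CPM in OVMANA, 230.7 in OVTOKO and 382.4 in SK-OV-3, at 79.9 and 58.4 CPM in IGROV-1 PromethION and 86.2 and 65.5 CPM in MinION libraries, at 1.8 CPM in COV504, and had no count in OVKATE or COV362. Of the 7 lines, 3 thus lay near 0, and no library lay between 1.8 and 58.4 CPM. Against IGROV-1 PromethION it was at least 46.6-fold lower in OVKATE and 58.9-fold lower in COV362 (floor of 3 counts in the line's library, edgeR adjusted p = 4.7e-05 and 7.1e-05), and in COV504 the log2 change was -5.32 ± 0.51 (edgeR adjusted p = 0.0001). It was higher in OVMANA, OVTOKO and SK-OV-3, by 1.70 ± 0.24, 1.82 ± 0.24 and 2.24 ± 0.23 on the log2 scale (edgeR adjusted p = 0.00096, 0.00078 and 0.00018). DNAJC19, a subunit of the import motor related to DNAJC15 (chr3:180983709-180989774), was at 275.0 CPM in OVKATE, 117.1 in COV362 and 36.9 to 97.8 CPM in the other libraries. Its changes in OVKATE (2.36 ± 0.21, edgeR adjusted p = 5.4e-05) and COV362 (1.47 ± 0.22, edgeR adjusted p = 0.0011) held. Those in OVMANA, SK-OV-3 and COV504 (0.89 to 1.23) were not called with DESeq2 (adjusted p = 0.053 to 0.2). In COV504, the third line near 0 for DNAJC15, DNAJC19 was at 89.9 CPM, below OVMANA (97.8) and SK-OV-3 (94.2). Over the 9 mitochondrial members, 8 of them tested, at most 3 were higher and 3 lower in any line. Of all genes, 18.2 to 26.8% were higher and 15.9 to 22.4% lower in a line.

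HSPB1 (HSP27, chr7:76302544-76304295) made up nearly all of the level of the small heat shock proteins among the members. It was at 1194 CPM in OVMANA, 2441 in OVKATE, 502.4 in OVTOKO, 1140 in SK-OV-3, 1893 in COV362 and 592.2 in COV504, with 1358 and 1478 CPM in the IGROV-1 PromethION and 1888 and 2034 CPM in the MinION libraries. OVTOKO and COV504 stood below all other libraries, with log2 changes of -1.42 ± 0.17 and -1.34 ± 0.16 (edgeR adjusted p = 0.00041 and 0.00037). The calls in SK-OV-3 (-0.54), OVKATE (0.48) and COV362 (0.46) had edgeR adjusted p-values of 0.023, 0.028 and 0.038 and were not called with DESeq2 (0.14, 0.059 and 0.12). HSPB2, known from muscle (chr11:111912242-111914093), was at 45.0 CPM in OVKATE, 7.1 CPM in COV362 and 0 in the other 8 libraries, at least 70.1-fold and 11.0-fold above the IGROV-1 PromethION libraries (floor of 3 counts over both, edgeR adjusted p = 0.0002 and 0.0042, the second 0.12 with DESeq2). Its divergent neighbour CRYAB, alpha-B crystallin, is also a small heat shock protein but lies outside the members by its symbol. CRYAB was at 3619 CPM in OVKATE, above HSPB1 there, 69.0 in COV362, 87.6 in OVMANA and at most 7.09 CPM elsewhere. HSPB8, which works with BAG3 in autophagy, was low throughout at 0.5 to 9.4 CPM. Its calls as lower in OVMANA, SK-OV-3 and COV504 rest on 1 to 4 counts in those libraries and were not called with DESeq2 (adjusted p = 0.36 to 0.59).

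Among the class A J-domain proteins, DNAJA1, a main cytosolic partner of HSPA8, was called in all 6 lines. It was at 191.8 CPM in OVMANA, 302.7 in OVKATE, 283.3 in OVTOKO, 231.5 in SK-OV-3, 245.6 in COV362 and 685.2 in COV504, with 463.9 and 505.1 CPM in IGROV-1 PromethION and 467.2 and 508.9 CPM in MinION libraries. The IGROV-1 libraries lay above all lines but COV504. The log2 changes of the 5 lower lines were -1.29 to -0.70 (edgeR adjusted p = 0.00044 to 0.01), that of OVTOKO not being called with DESeq2 (adjusted p = 0.12). COV504 was higher by 0.42 (edgeR adjusted p = 0.047, 0.26 with DESeq2). DNAJA4 (chr15:78264086-78282196) was at 36.1 CPM in OVKATE, 16.9 in COV504 and 11.0 in COV362, and had no count in the other 7 libraries. Over the floor of 3 counts in both IGROV-1 PromethION libraries these are at least 56.2-fold, 26.3-fold and 17.1-fold higher (edgeR adjusted p = 0.00024, 0.00088 and 0.0017). DNAJA2 and DNAJA3 were called in no line.

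In class B, DNAJB1 (HSP40, the main inducible partner of HSP70) was at 54.3 CPM in OVTOKO to 155.3 CPM in OVKATE and was lower in OVTOKO (-0.998, edgeR adjusted p = 0.0066) and SK-OV-3 (-0.74, 0.015), though not with DESeq2 (adjusted p = 0.16 and 0.35). Its relative DNAJB5 was lower in 5 lines, with 2 counts (1.0 CPM) in OVKATE against 14.5 and 24.9 CPM in IGROV-1 PromethION, a ratio of 19.9 (95% exact counting interval 5.36 to 167, edgeR adjusted p = 0.00093). DNAJB5 changes in OVMANA, OVTOKO, COV362 and COV504 were -2.13, -1.55, -2.42 and -3.20 and were not called with DESeq2 (adjusted p = 0.087 to 0.57). DNAJB4, also close to DNAJB1, was at 4.8 CPM in OVMANA, 5.8 in OVTOKO and 7.6 in SK-OV-3 against 22.2 and 19.8 CPM, with log2 changes of -2.05, -1.77 and -1.69 (edgeR adjusted p = 0.0047, 0.009 and 0.0052), none called with DESeq2 (0.26, 0.37 and 0.35). DNAJB2, a ubiquitin-binding J-domain protein best known in neurons, was at 119.2 CPM in OVKATE and 10.2 to 46.6 CPM elsewhere (log2 change 2.49 ± 0.20, edgeR adjusted p = 3e-05). DNAJB6, an inhibitor of polyglutamine aggregation whose promoter element is shown above, was at 170.8 CPM in COV362 against 85.4 and 83.8 CPM (1.06 ± 0.15, edgeR adjusted p = 0.00093, 0.059 with DESeq2). DNAJB13, an axonemal protein of cilia and sperm, had 20 counts in OVMANA and none in IGROV-1, at least 16.6-fold higher (edgeR adjusted p = 0.0041). DNAJB13 could be tested in only 8 of the alternative fits, DESeq2 not among them. In OVTOKO and SK-OV-3 it had 6 counts each, and both calls (edgeR adjusted p = 0.031 and 0.037) were lost without IGROV-1 MinION replicate 1 (0.062 and 0.059).

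Of the 26 class C members, 24 were tested, and 2 to 6 were higher and 2 to 5 lower in a line, beside 18.2 to 26.8% of all genes higher and 15.9 to 22.4% lower. DNAJC22 had no count in IGROV-1 and was at least 44.6-fold higher in OVKATE (28.7 CPM) and 18.9-fold higher in SK-OV-3 (12.2 CPM, edgeR adjusted p = 0.00044 and 0.0023). Its calls in COV362 and COV504 (edgeR adjusted p = 0.019 and 0.022) rest on 8 and 7 counts and were lost without IGROV-1 MinION replicate 1 (0.056 and 0.059). DNAJC12, a co-chaperone of the aromatic amino acid hydroxylases (chr10:67796665-67838166), was at 33.4 CPM in SK-OV-3 and at most 2.5 CPM elsewhere (log2 change 4.98 ± 0.67, edgeR adjusted p = 0.0006, 0.12 with DESeq2). DNAJC2 (MPP11, which works at the ribosome) was at 28.4 CPM in SK-OV-3 against 82.9 and 82.0 CPM (-1.77 ± 0.20, edgeR adjusted p = 0.00029), and DNAJC7, a tetratricopeptide protein between HSP70 and HSP90, at 29.2 CPM in OVKATE against 75.6 CPM in both (-1.67 ± 0.21, edgeR adjusted p = 0.00034). DNAJC5 (cysteine string protein) was higher in OVMANA, OVKATE, SK-OV-3 and COV504 by 0.68 to 1.13, with DESeq2 adjusted p-values of 0.16 to 0.49. DNAJC6 (auxilin, which uncoats clathrin vesicles) had 19 counts in OVKATE and 3 over both IGROV-1 PromethION libraries, a ratio of 14.6 (95% exact counting interval 4.31 to 77.2, edgeR adjusted p = 0.012). It too could be tested in only 8 of the alternative fits, without DESeq2.

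Read by regulation, a list of 13 HSF1-inducible members, 12 of them tested, did not move together. The list holds HSP90AA1, HSP90AB1, HSPA1A, HSPA1B, HSPA6, HSPA8, HSPB1, HSPD1, HSPE1, HSPH1, DNAJA1, DNAJB1 and DNAJB4. It thus includes HSP90AB1 and HSPA8, named constitutive above. Both are among those counted as lower in OVKATE, and HSPA8 among those lower in SK-OV-3. The 2 HSPA8 calls are not among the 46 that held, with DESeq2 adjusted p-values of 0.26 in OVKATE and 0.088 in SK-OV-3. Of the 12, 1 was higher and 7 lower in SK-OV-3, 1 and 3 in OVMANA, 3 and 4 in OVTOKO, 4 and 3 in OVKATE, 5 and 2 in COV362, and 4 and 1 in COV504. Of all genes, 22.0% were higher and 19.8% lower in SK-OV-3, and 18.2 to 26.8% and 15.9 to 22.4% over the 6 lines. Their median log2 change ran from -0.57 in SK-OV-3 to 0.25 in OVKATE, against -0.01 to 0.04 for all genes. HSPA6, the strictly inducible HSP70 with an element in its promoter, was at 0 to 1.5 CPM. HSF1 itself was called in COV362 only (0.91), and HSF2 was lower in OVMANA, OVKATE and COV362 (-1.30, -1.12 and -0.82).

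Partners outside the members are given as tested over all 10 libraries, with no alternative run. Of 24 co-chaperones and exchange factors, 0 to 5 were higher and 5 to 9 lower in a line, beside 18.2 to 26.8% and 15.9 to 22.4% of all genes. AHSA1, an activator of HSP90, was lower in all 6 lines, by log2 changes of -1.75 to -0.65, and BAG2, an HSP70 exchange factor, was lower in all 6 by -4.54 to -0.75. FKBP5 was higher in COV362 (2.39), and HYOU1, the HSP110 of the ER, was lower there (-2.70). Of the 14 genes of the cytosolic chaperonin TRiC and prefoldin, which fold actin and tubulin, 8 were higher and none lower in COV362 (median 0.52) and 1 was higher and 8 lower in OVKATE (median -0.53), where 23.7% and 18.8%, and 26.8% and 22.4%, of all genes were higher and lower. OVMANA had 3 higher and 2 lower, SK-OV-3 had 1 higher and 4 lower, OVTOKO had 1 higher and 3 lower, and COV504 had 1 of each. CCT8 was called in COV362 and OVKATE, at log2 changes of 1.63 and -1.42.

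Between the instruments, the MinION and PromethION libraries of IGROV-1 were compared over 10041 genes, of which 0.817% were called. None of the 51 members tested was called by edgeR (9 had an unadjusted p under 0.05, as had 1659 of all genes) nor by DESeq2 (4). The lowest p-values belonged to HSP90AB1, at 992.8 and 1040 CPM on the MinION against 1361 and 1416 CPM on the PromethION (log2 change -0.49 ± 0.12, edgeR adjusted p = 0.11), DNAJA3 (-0.59 ± 0.16, 0.14) and HSPA4L (0.68 ± 0.19, 0.14).

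Single transcripts were called more often, 2.29% of the 14023 tested, and 2 of the members' 72 tested transcripts were, both of HSPA8 (chr11:123057489-123063230). The main transcript ENST00000534624 held 95.11 to 97.16% of the gene in the PromethION libraries and 90.91 and 92.03% in the MinION libraries. ENST00000227378, which starts 1003 bases further downstream, was at 13.5 and 14.2 CPM in IGROV-1 PromethION and at 99.9 and 73.6 CPM in MinION libraries (log2 change 2.59 ± 0.24, edgeR adjusted p = 0.0013). ENST00000534319, starting 1949 bases downstream, was at 2.0 and 2.7 CPM against 19.4 and 17.8 CPM (2.91 ± 0.36, edgeR adjusted p = 0.0052). Both calls were lost without IGROV-1 MinION replicate 1 (0.48 each) or replicate 2 (0.082 and 0.19) and with no filter on low counts (0.15 each).

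Transcript usage, the share of each transcript within its gene, differed between instruments for 5.98% of the 2979 genes tested and for 3 of 14 members, by edgeR's diffSpliceDGE with Simes p-values. HSPA8 (edgeR adjusted p = 1.7e-05) held under every alternative. In HSP90AB1 (edgeR adjusted p = 0.0051) the share of ENST00000353801 was 2.64 and 2.25% on the PromethION and 4.80 and 5.39% on the MinION, beside the main ENST00000371646 at 93.98 to 97.23%. ENST00000620073 held at most 0.56% of HSP90AB1 in IGROV-1. In HSPD1 (edgeR adjusted p = 0.031) ENST00000345042 rose from 0.53 and 0.49% to 1.58 and 1.20%, the rest being ENST00000388968. The HSP90AB1 and HSPD1 calls were each lost when any 1 of the 4 libraries was left out, with adjusted p-values up to 0.21 and 0.33.

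**Figure D5:**
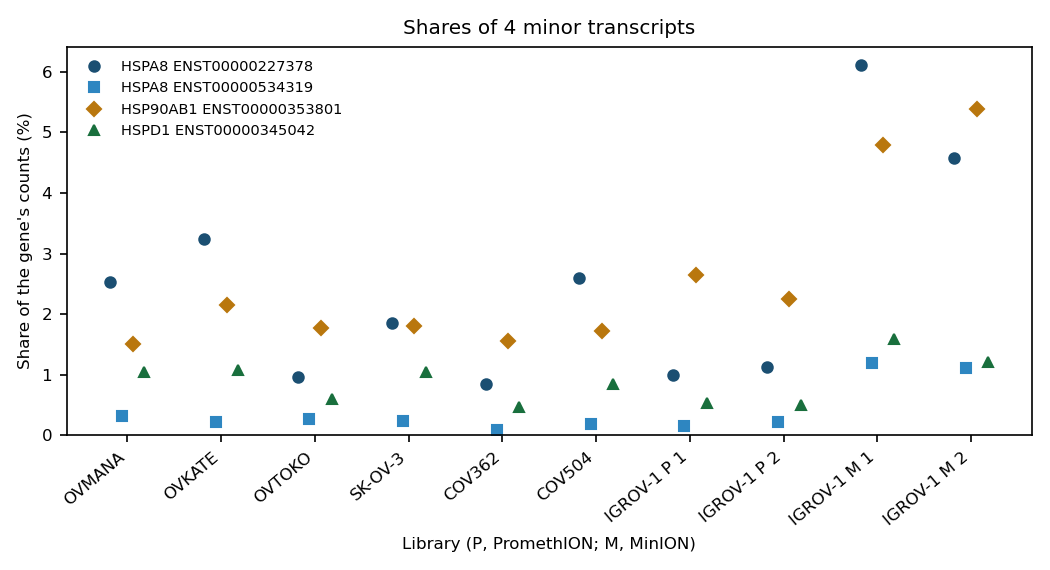
Share of 4 minor transcripts in the counts of their gene, in percent, by library. ENST00000227378 of HSPA8 is at 4.58 and 6.11% in the IGROV-1 MinION libraries and at 0.85 to 3.24% in the 8 PromethION libraries.

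Between lines, usage was tested in 4730 genes, 23 of them members. Over all genes 2.75% were called in OVMANA, 4.97% in OVKATE, 1.35% in OVTOKO, 2.07% in SK-OV-3, 2.98% in COV362 and 2.56% in COV504. HSPA8 was called in OVKATE (edgeR adjusted p = 0.01), where ENST00000227378 held 3.24% against 0.99 and 1.12% in IGROV-1 PromethION, and the call was lost without PromethION replicate 1 or 2 (0.2 and 0.16). HSPE1 was called in SK-OV-3 (edgeR adjusted p = 0.01), where ENST00000233893 of HSPE1 held 83.66% and ENST00000323303, which is MOB4, 14.56% of the joined row, the latter against 4.28 to 7.46% in the other libraries. That call was lost in the PromethION libraries alone (0.059) and when any 1 IGROV-1 library was left out (up to 0.26). The third most abundant transcript of the row, ENST00000448447 of MOB4, held 0.36 to 0.98%. The other members tested for usage passed in no line in this fit. With genes of a mean of at least 10 CPM only, HSPA8 was also called in OVMANA and COV504 (edgeR adjusted p = 0.049 and 0.036) and HSPH1 in OVMANA (0.028).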

How the data were processed

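Nanopore libraries of 10 samples from 7 ovarian cancer cell lines were analysed. The authors deposited estimated counts (expected counts) and TPM per transcript, per the file headers. Minimap2 2.24-r1122 and GRCh38 are listed in the submitters' processing notes without a role, and no label or header names the quantifier or its settings. The deposited TPM matches counts scaled to 1000000 per library (largest difference 5.6e-11), without a term for transcript length, and is called CPM here. Counts were summed per gene with the authors' annotation and rounded. R 4.3.3 with edgeR 4.0.16 (quasi-likelihood, TMM, filterByExpr, Benjamini-Hochberg over all features, threshold 0.05) was the test, on 2 residual degrees of freedom from IGROV-1, and DESeq2 1.42.0 an alternative. The steps were tested on simulated data. Gene coordinates are those of GENCODE on GRCh38. Intervals are exact at 95% and cover counting error only. Totals of 1729782 to 3666224 counts set the precision. Alternatives were size factors, filters, mitochondrial rRNA left out, a 2-fold minimum, a replicate block, PromethION libraries only and leaving out each IGROV-1 library. The members and lists were chosen with earlier results of these data known. Named members were the 12 with the highest mean, the 6 called per line with the largest change, the 3 with the lowest p between instruments, members called for usage with their 3 most abundant transcripts, and members in fewer than 4 libraries. Others named were chosen after their values were seen.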

Additional observations from a re-analysis of the deposited data

Results flagged for a closer look

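HSP90AA2P, an HSP90 alpha pseudogene outside the members, had counts in every library, from 1.07 CPM in OVMANA to 8.34 CPM (27 counts) in IGROV-1 MinION replicate 2. It was singled out because it is a signal in rows that the comparisons above do not use, and because its highest level lies above the limit that a count of 0 allows. In OVMANA it lies below that limit of 1.60 CPM. Whether these reads come from HSP90AA1 was not tested.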

How the results depend on the processing

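Numbers of members called in the lines moved by over 1.5 times with DESeq2, to 6 of 16 in OVMANA, 13 of 29 in OVKATE, 6 of 20 in OVTOKO, 8 of 23 in SK-OV-3, 9 of 26 in COV362 and 5 of 23 in COV504. Calls over all 13030 genes fell too, from 4443 to 6405 in a line by edgeR to 1314 to 2116 by DESeq2. A 2-fold minimum removes calls by construction. With it the members called were 11 in OVMANA, 16 in OVKATE, 12 in OVTOKO, 14 in SK-OV-3, 19 in COV362 and 12 in COV504. Over all 13030 genes the same minimum left 3590, 5039, 3460, 4191, 4175 and 4320 calls in that order.
Leaving out 1 IGROV-1 library gave 12 to 18 called members in OVMANA, 21 to 25 in OVKATE, 13 to 20 in OVTOKO, 16 to 21 in SK-OV-3, 19 to 25 in COV362 and 15 to 21 in COV504, and between instruments 0 genes, 0 to 6 transcripts and 1 gene for usage, with 0 to 1 for usage in at least 1 line. Without IGROV-1 PromethION replicate 1 more transcripts were called between instruments, and without either MinION replicate fewer, among members and all transcripts alike. Each such fit leaves 1 library for 1 instrument. The log2 changes of the 2 HSPA8 transcripts stayed at 2.30 to 2.83 and 2.78 to 3.05 over the alternatives. With no filter on low counts 0 member transcripts were called, beside 17 of all 32899. In the PromethION libraries alone 1 member changed usage in a line. The cause was not tested. Over the named changes of single members, 1136 of 1386 values under an alternative kept their direction and side of the threshold, 247 kept the direction but were no longer called, 3 became called and none reversed. Without mitochondrial rRNA in the total, the members' sum rose from 1.27 and 1.29% to 1.40 and 1.44% of counts in IGROV-1 PromethION and ran from 1.16 to 1.62% in the other libraries.

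The IGROV-1 replicates share numbers across instruments, but the labels give no pairing. Differences between replicates 1 and 2 correlated between instruments across 10041 genes, which are not independent (Pearson r 0.367, Spearman rho 0.34), and with 2 pairs this is a hint only. With a replicate block, 13 of 51 member genes (1979 of all 10041 genes) and 19 of 72 member transcripts (2291 of all 14023) were called between instruments, and 3 of 14 members for usage (234 of 2979 genes). Each of the 6 other lines is 1 library, and members under about 3 counts, 0.818 to 1.73 CPM, cannot be told from 0.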
